A study of Mus musculus with 14 samples.

Results

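The comparison described here set cells labelled sCAF against natural killer (NK) cells, both sorted from 4T1 breast tumours. It covered the 9215 genes listed in both deposited count tables. It used 7 of the 14 libraries of the study: 3 labelled sCAF, a subset of cancer-associated fibroblasts, and 4 of tumour NK cells. The other 7 libraries, of spleen NK cells, were not part of it. All 7 libraries came from 8-week-old BALB/c females that had been injected with 100000 4T1-GFP cells in the mammary fat pad. 4T1 is a mouse mammary carcinoma line, and the injected cells carried green fluorescent protein (GFP), which let tumour cells be gated out. Tumours were broken up with DNase and collagenase A over 20 min at 37 °C. The sCAFs were enriched magnetically and sorted by flow cytometry for the absence of EPCAM, GFP, CD45, CD31 and PDPN (podoplanin), with no positive marker named. NK cells were enriched with a kit and sorted as CD45 and NKp46 positive and negative for GFP, EPCAM, CD3, CD31 and CD14. The labels do not say whether replicates came from separate mice, so p-values measure the spread between these libraries, which may be technical. Per the series title the study asked how such fibroblasts act on NK cell killing of cancer cells. The comparison asks what the sCAF libraries express and which of those products have a receptor transcript in the NK libraries.

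Cancer-associated fibroblasts are the matrix-producing cells of tumours, and they are known for collagens, fibronectin, matrix-cutting enzymes, growth factors and chemokines. NK cells are innate lymphocytes that kill through perforin and granzymes. Their activity is set by a balance of activating receptors, such as NKG2D (Klrk1) and DNAM-1 (Cd226), against inhibitory ones, such as NKG2A (Klrc1), TIGIT and the Ly49 family (Klra genes), which read ligands on the cells they touch. Chemokine receptors and integrins decide where NK cells go and stay in a tissue.

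Levels are CPM, each gene's counts scaled to a common library total over the shared genes, and because the libraries count transcript 3' ends they are not divided by gene length. The total over shared genes ran from 1211941 to 2064554 counts in the sCAF libraries and from 669603 to 1726032 in the tumour NK libraries. A floor of 3 counts, the most that a reading of 0 leaves possible, lay at 1.45 to 2.48 CPM in sCAF libraries and at 1.74 to 4.48 CPM in tumour NK libraries, for counting error only. Replicates correlated across genes with r between 0.954 and 0.973 among sCAF libraries and between 0.956 and 0.975 among tumour NK libraries, and libraries of different groups with r between 0.467 and 0.518 on the log2 CPM scale, where single genes are no independent replicates. Each population fills a table of its own, so cell type, sort and table cannot be told apart. In sorted bulk samples fewer cells with a transcript and less of it per cell cannot be told apart either.

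Marker transcripts matched the label of the NK libraries and matched that of the sCAF libraries only in part. The summed level of 6 general leukocyte markers was 24.2, 19.8 and 19.8 CPM in sCAF replicates 1 to 3 and lay between 12110 and 14050 CPM in the tumour NK libraries. Ptprc, which encodes the CD45 used in both sorts, was at 1.94, 0 and 1.65 CPM in sCAF libraries and between 1579 and 2192 CPM in tumour NK libraries. Of 12 NK markers 11 were listed in the NK table only, so they had no value in the sCAF libraries. The remaining one, Il2rb, stayed under 3 CPM in every sCAF library.

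Among 15 fibroblast markers, all were listed in the sCAF table, and the transcripts used for the sort were low there. Pdpn was at 0.969, 1.65 and 4.13 CPM and Pecam1 (CD31) at 0.969, 2.47 and 2.48 CPM. Col1a2 was at 192.8, 401.2 and 455.5 CPM, Dcn (decorin) at 43.1, 113.7 and 160.9 CPM and Pdgfra at 66.4, 43.7 and 93.2 CPM in sCAF replicates 1 to 3. Fap and Lum, a pair of other common fibroblast markers, stayed under 3 CPM in each library. Most of the list's sum came from S100a4, at 2859, 2413 and 1525 CPM, a gene that tumour NK libraries also held at 691.8 to 1312 CPM. Without S100a4 the sums were 628.2, 1212 and 1673 CPM in sCAF libraries and 898.6 to 1117 CPM in tumour NK libraries, where Thy1 and Ly6c1 made up most of it, and these sums were formed after the values were seen.

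The list for carcinoma or epithelial cells went against the label. Its 12 genes summed to 3874, 5046 and 4269 CPM in sCAF replicates 1 to 3, against 61.4 to 112.3 CPM for the 3 that the NK table also lists, and 11 of the 12 were above 0 in the sCAF libraries (Krt5 was at 0). Krt18, a keratin of simple epithelia, was at 2485, 3250 and 2473 CPM and its partner Krt8 at 892.7, 828.8 and 759.1 CPM. Cldn4, a claudin of epithelial tight junctions, was at 115.3, 266.1 and 294.6 CPM, while Epcam itself was at 6.30, 29.7 and 27.2 CPM. Without both keratins the list still summed to 496.5, 967.2 and 1037 CPM in the 3 libraries, a sum also formed after the values were seen. The libraries are called sCAF below after their label only, and the part of keratin-expressing cells in each result was not tested.

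Pericyte and smooth muscle markers set sCAF replicate 3 apart, with a sum of 526.4 CPM against 71.2 and 126.9 CPM in replicates 1 and 2. The endothelial list summed to 309.5, 275.2 and 222.8 CPM in sCAF replicates 1 to 3, most of it from Eng. Without Eng and Pecam1 the sums were 11.6, 20.6 and 25.6 CPM, formed after the values were seen. Macrophage transcripts were low in both groups apart from Ly6c2, which tumour NK libraries held at 646 to 1031 CPM. The remainder of that list summed to 86.5 to 189 CPM in sCAF libraries and to 30.5 to 147.7 CPM in tumour NK libraries. Tumour NK replicate 3 was the highest of its group, and this sum too was formed after the values were seen.

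**Figure D1:**
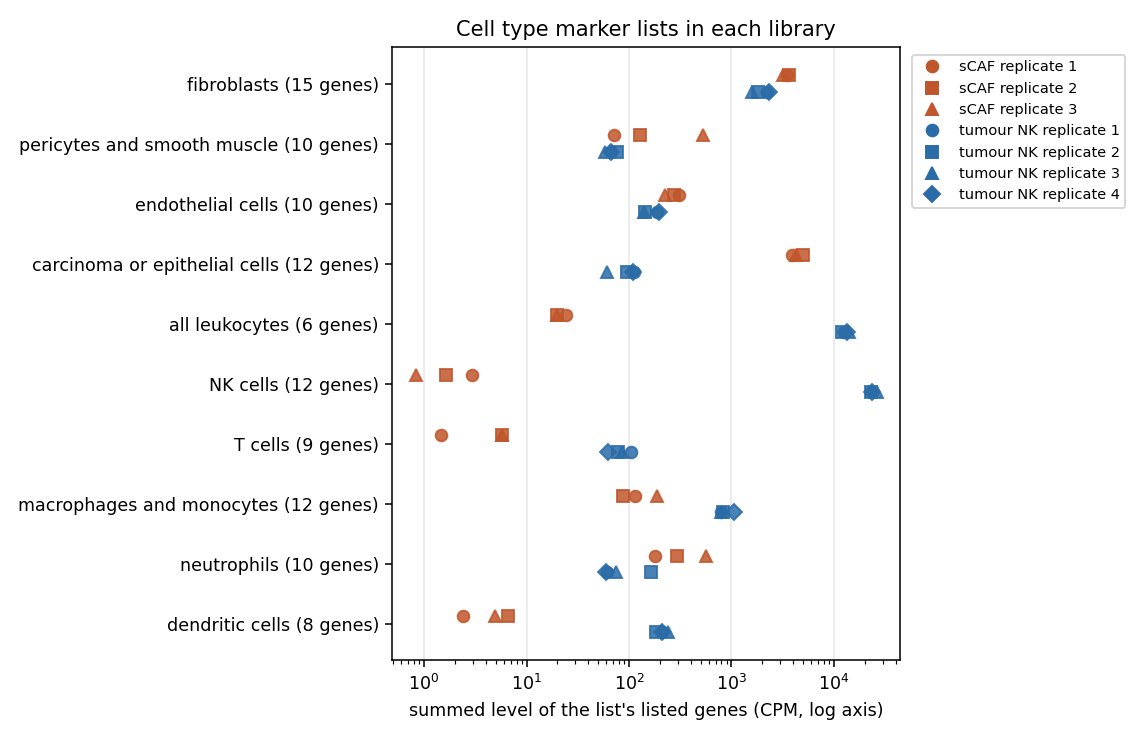
Summed CPM (log axis) of the listed genes of 10 marker lists, with 1 point per library (orange for sCAF, blue for tumour NK, shapes for replicates). The leukocyte and NK lists stand high in the tumour NK libraries and low in sCAF libraries, where only 1 NK gene was listed. The carcinoma or epithelial list lies at 3874 to 5046 CPM in the 3 sCAF libraries.

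Of 8027 shared genes with enough counts to be tested, 2779 (34.6%) were called higher and 2882 (35.9%) lower in sCAF than in tumour NK at an adjusted p under 0.05 (edgeR quasi-likelihood test, Benjamini-Hochberg over all genes tested). In all 70.5% of the tested genes were called and 68.2% had libraries that did not overlap between the groups, so a single call says little by itself and the sizes below matter more. At least a 4-fold difference was fitted for 841 genes called higher and 962 called lower. The median log2 fold change over all tested genes was -0.01. This centre is set by the scaling between libraries (TMM), which takes most genes as unchanged. That premise is open where 70.5% of genes were called. The median was 0.01 without TMM and -0.04 with upper-quartile scaling.

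Cxcl1, a chemokine that draws neutrophils through CXCR2, led the genes higher in sCAF among those whose lower group averaged at least 3 counts. It was at 3951, 3125 and 3633 CPM in sCAF replicates 1 to 3 and at 0.808, 2.99, 7.53 and 0 CPM in tumour NK replicates 1 to 4. The groups were far apart, with a fitted difference of 1023-fold (SE 0.42 on the log2 scale, adjusted p = 9.4e-11 in edgeR). Fn1 (fibronectin), an adhesive matrix protein, was at 2562, 3567 and 3837 CPM against 0 to 7.47 CPM, a log2 fold change of 9.42 (SE 0.35). The log2 fold changes of the other genes at this end were 8.34 for Cd63 (a tetraspanin of late endosomes), 8.34 for Igfbp7 (a secreted IGF-binding protein), 8.21 for Id3 (an inhibitor of DNA binding by helix-loop-helix factors), 7.90 for Trib1 (a pseudokinase), 7.86 for Sparc (a collagen-binding matrix protein) and 7.78 for Mt1 (metallothionein). All 8 were higher in every sCAF library than in any tumour NK library, which the rule that picked them required.

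At the other end stood genes of leukocyte signalling and NK effector function. Selplg, which encodes the P-selectin ligand PSGL-1, was at 3.39, 3.30 and 2.48 CPM in sCAF replicates and at 2117, 2479, 2668 and 2342 CPM in tumour NK replicates 1 to 4, a log2 fold change of -9.57 (SE 0.28, adjusted p = 4.4e-18 in edgeR). Il2rb, the shared receptor chain for IL-2 and IL-15, differed by -9.45 on the log2 scale, and Ccl5, a chemokine secreted by NK cells, by -9.45. The signalling adaptors Fcer1g and Tyrobp (DAP12) differed by -9.16 and -9.06. Laptm5, Ccl4 and Coro1a followed at -8.71, -8.54 and -7.69. The same rule took only genes whose libraries did not overlap between the groups, so their separation is no separate result.

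Among genes listed in both tables, H2-D1, a class I heavy chain, led the sCAF libraries with 11440, 11950 and 8597 CPM and did not differ by the test from the 8633 to 10260 CPM of tumour NK (log2 fold change 0.15, SE 0.16, adjusted p = 0.424 in edgeR). Fth1 (ferritin heavy chain) was at 10280 ± 1420 CPM (SD, n = 3) against 2740 ± 129 CPM (n = 4), and Vim (vimentin, the mesenchymal intermediate filament) at 10040 ± 195.5 CPM against 997.1 ± 118.3 CPM. Lgals1 (galectin-1) was at 7116 ± 1323 CPM against 3130 ± 448 CPM and Lmna (lamin A/C) at 4799 ± 658 CPM against 546 ± 136 CPM. Spp1 (osteopontin), a ligand of CD44 and of integrins with the Itgav chain, was at 4705, 4105 and 6282 CPM in sCAF and at 75.2, 35.8, 32.4 and 74.8 CPM in tumour NK libraries. These 5 genes other than H2-D1 were called higher, whereas Actb (cytoskeletal actin), also among the 8 most abundant, was called lower, at 3702, 5031 and 8061 CPM against 8287 to 11920 CPM (log2 fold change -0.90, SE 0.22). In tumour NK libraries Ccl5 stood first among the genes of both tables, at 12170 ± 1614 CPM (n = 4), and Tmsb4x (thymosin beta 4, which binds actin monomers) was at 10010 ± 2597 CPM there against 571.6 ± 343.9 CPM in sCAF (log2 fold change -4.17, SE 0.46).

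**Figure D2:**
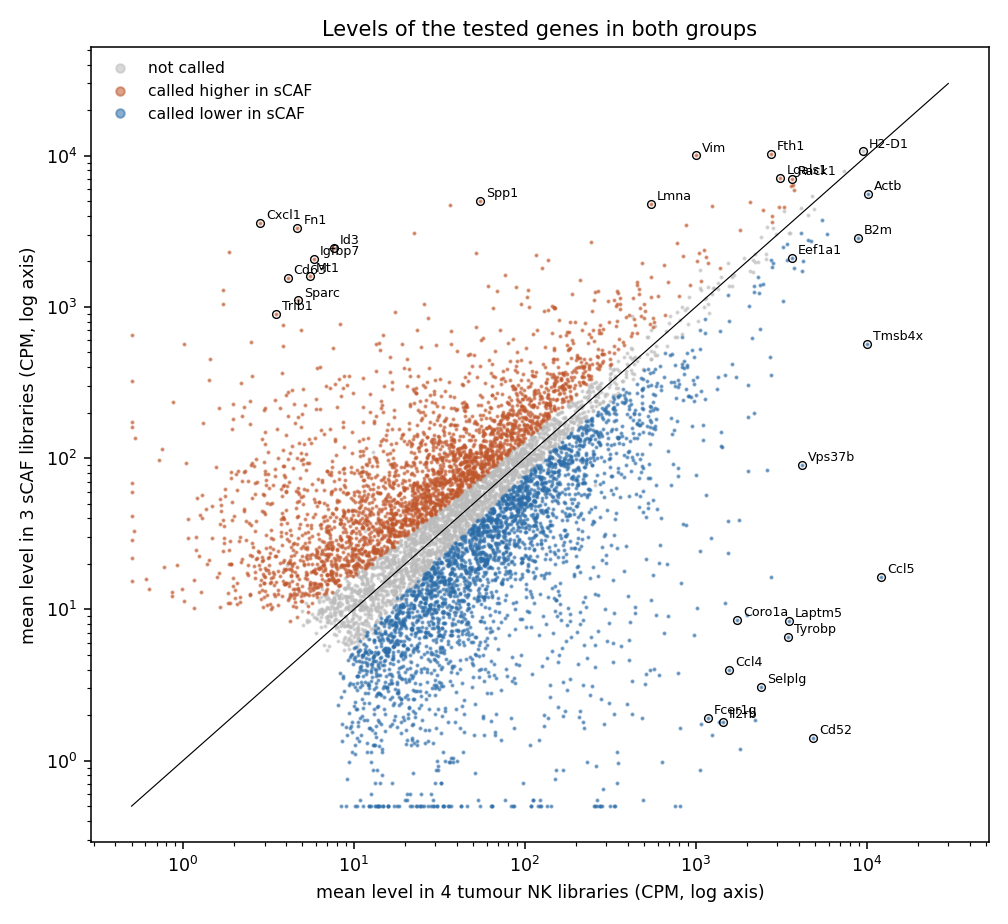
Mean CPM of each of the 8027 tested genes in 4 tumour NK libraries (horizontal, log axis) and in 3 sCAF libraries (vertical, log axis), coloured by call, with means under 0.5 CPM drawn at 0.5 and the genes of the naming rule circled. Cxcl1 and Fn1 stand at the upper left, Selplg and Il2rb at the lower right, and H2-D1 lies on the line of equal levels.

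Genes were then taken by function, from 26 lists. Of the 20 collagens on the list 4 were tested and all 4 were called higher in sCAF, against 34.6% of all tested genes. A further 15 were listed in the sCAF table only, so they have no tumour NK value here. Col4a1, a basement membrane collagen, was at 239, 317 and 650 CPM in sCAF libraries and at 4.85, 11.9, 5.79 and 2.77 CPM in tumour NK libraries (log2 fold change 6.05, SE 0.47). Col7a1, the collagen of anchoring fibrils under epithelia, differed by 7.11 (SE 0.35). Among those listed for sCAF only, Col18a1 was at 841.3, 891.4 and 619.7 CPM and Col1a1, the main fibrillar collagen of fibroblasts, at 49.9, 79.9 and 89.9 CPM. Summed over the list, collagen transcripts took 2885, 3301 and 3939 CPM in sCAF replicates 1 to 3 and 15.7 to 26.7 CPM in tumour NK libraries.

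Matrix glycoproteins showed the same direction, with 7 of 7 tested genes higher and a median log2 fold change of 6.49, beside -0.01 over all genes tested. Lamb1 and Lamc1, chains of laminin, differed by 6.49 (SE 0.20) and 5.34 (SE 0.31). Among matrix enzymes and their inhibitors 8 of 9 were higher, beside 34.6% of all tested genes. Timp1 and Timp2, inhibitors of matrix metalloproteinases, differed by 6.91 (SE 0.28) and 4.47 (SE 0.19). Serpinh1, the collagen chaperone HSP47, was at 540.1, 575.1 and 831.7 CPM in sCAF libraries and under 1 CPM in each tumour NK library. Mmp9, a gelatinase, was at 178.2, 282.6 and 531.4 CPM against at most 4.06 CPM (log2 fold change 7.34, SE 0.67). The only tested member that was not called was P4ha1, a prolyl hydroxylase subunit, at 7.43 to 14 CPM against 5.97 to 9.27 CPM (adjusted p = 0.198 in edgeR).

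Contractile genes were mixed, with 6 of 10 higher, 1 lower and 3 not called, beside 34.6% higher and 35.9% lower over all tested genes. Actn1 (alpha-actinin 1) differed by 7.28 (SE 0.27) and Tpm1 (tropomyosin 1) by 3.43 (SE 0.20). Tpm4 was lower by the test, with a log2 fold change of -2.25 (SE 0.20), and without sCAF replicate 3 the number called lower was 3. Acta2, the smooth muscle actin that marks myofibroblasts, was at 3.39, 4.12 and 3.30 CPM in the sCAF libraries, barely above the floor.

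Secreted growth factors and their carriers were called higher for 7 of 10 tested members and lower for none, beside 34.6% and 35.9% of all tested genes. Igfbp4, which binds insulin-like growth factors, was at 2878, 3122 and 3174 CPM against 31.5, 14.9, 13.9 and 29.6 CPM (log2 fold change 7.05, SE 0.25). Csf1, the growth factor of macrophages, was at 561.9, 506.7 and 576.8 CPM against 1.85 to 5.66 CPM (7.10, SE 0.24). Lif, a cytokine of the IL-6 family, differed by 5.24 (SE 0.39) and Areg (amphiregulin, a ligand of the EGF receptor) by 5.2 (SE 0.32). Csf3, the granulocyte growth factor G-CSF, was listed for sCAF only, at 1065, 700.3 and 1040 CPM, as was Tslp, a cytokine of epithelial and stromal cells, at 146.8, 233.2 and 519 CPM. Il6 reached 6.78, 6.59 and 28.1 CPM. Vegfc was not called, but it was called lower without sCAF replicate 1, without tumour NK replicate 3, with the replicate number as a block and with all 14 libraries in 1 fit (log2 fold change -2.52, -1.53, -1.58 and -1.30).

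Complement and acute-phase genes were higher for 4 of 6 tested members, beside 34.6% of all tested genes. C3, the central complement component, was at 244.1, 227.4 and 176.6 CPM in sCAF libraries and at most 8.11 CPM in tumour NK libraries. Lcn2 (lipocalin 2), an iron-scavenging acute-phase protein, was listed for sCAF only at 1299, 1280 and 1718 CPM.

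Of 9 tested chemokine ligands 5 were higher in sCAF (Cxcl1, Ccl2, Cxcl16, Cxcl2 and Cxcl10) and 4 lower (Ccl5, Ccl4, Ccl3 and Ccl9). Over all tested genes 34.6% were higher and 35.9% lower. Ccl2, the monocyte chemokine MCP-1, was at 364.2, 254.6 and 740.1 CPM in sCAF replicates and at 0.808, 0, 4.06 and 0.923 CPM in tumour NK libraries, a log2 fold change of 7.79 (SE 0.63). Cxcl2, like Cxcl1 a CXCR2 ligand, was at 240.2, 308.1 and 429.9 CPM against 22.6, 52.3, 27.2 and 16.6 CPM (3.51, SE 0.27). Every sCAF library exceeded every tumour NK library for both genes. Cxcl10, an interferon-induced ligand of CXCR3, was the one with overlapping groups, at 249.4, 173 and 222 CPM against 147.1, 210.6, 108.9 and 121.9 CPM (0.56, SE 0.19, adjusted p = 0.0111 in edgeR), and its call was lost without sCAF replicate 1 (0.43, adjusted p = 0.0716 in edgeR) and with the replicate number as a block (0.50, adjusted p = 0.0547 in edgeR). Cx3cl1 (fractalkine), which is made as a membrane-bound ligand, was listed for sCAF only at 424.3, 302.4 and 207.1 CPM.

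The stretches of DNA just before the start sites of Cxcl1 and Cxcl2 are shown because these CXCR2 ligands were both higher in the sCAF libraries and hold the same motif there. The sequences are from RefSeq on GRCm38.p6, a C57BL/6J reference, and run 5′ to 3′ on the gene's strand from base 150 to base 31 before the annotated start. They lie on chromosome 5, at chr5:90891095-90891214 and chr5:90903749-90903868, both on the plus strand, upstream of the first exon. Capitals mark the motif GGAATTTCC, of the form bound by NF-kappa B factors, which starts 70 bases before the Cxcl1 start and 96 bases before the Cxcl2 start.
Cxcl1: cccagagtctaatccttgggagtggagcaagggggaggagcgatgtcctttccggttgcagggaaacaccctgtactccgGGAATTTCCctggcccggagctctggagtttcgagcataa
Cxcl2: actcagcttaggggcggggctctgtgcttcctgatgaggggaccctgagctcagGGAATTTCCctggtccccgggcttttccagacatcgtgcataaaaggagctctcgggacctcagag
On either strand, the motif occurred in the 250 bases before the start in 94 of 32851 promoters (0.286%). Of the 25 chemokine ligand genes with a promoter entry 4 held it, the others being Cxcl10 and Cxcl3, of which Cxcl3 stayed between 2.47 and 3.88 CPM in sCAF libraries. A match is a description of these letters, not a bound site.

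Ligands were set against NK receptors in 109 pairs written from general knowledge, which join 58 receptors to 85 ligands or enzymes that make one. A transcript was taken as detected in a group when every library had more than 3 counts. By that rule 51 of the 58 receptors were detected in tumour NK libraries and 48 of the 85 ligands in sCAF libraries. Most of the other ligands, among them Cd80, Cd86 and Cd48, were not listed for sCAF, so they had no value there rather than a low one. The same holds in the NK libraries for the receptors Havcr2, Tnfrsf10b and Il1rl1. Both sides were detected in 59 pairs, which cover 36 receptors and 45 ligands. Of these 45 ligands 15 were called higher in sCAF than in tumour NK, 7 lower and 4 neither, and 19 were not tested. Over all tested genes 34.6% were higher and 35.9% lower. The 45 were kept for being detected in sCAF, which left out ligands called lower there, such as H60b, Icosl, Tnfsf10 and Ccl4. The excess of higher calls therefore follows in part from that filter. These are transcript levels in separately sorted cells, and no contact or protein was measured.

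Adhesion formed the largest group, with 19 of the 59 pairs. That size depends on how the pairs were written, since Fn1, Spp1 and collagens are each set against several receptors. Of 10 tested adhesion ligands 7 were higher in sCAF, beside 34.6% of all tested genes, with a median log2 fold change of 5.2. Fn1, at 3322 ± 672 CPM in sCAF, pairs with Itga4, the alpha 4 integrin chain, at 272.3, 339, 305.9 and 238.3 CPM in tumour NK libraries. Vcam1, the other alpha 4 ligand, was listed for sCAF only at 228.1, 113 and 133.7 CPM. Spp1 at 5031 ± 1125 CPM pairs with Cd44, which was not called, at 54.4 to 85.8 CPM in sCAF and 56.3 to 73.2 CPM in tumour NK (log2 fold change -0.02, SE 0.20, positive under 3 other scalings or fits). Col1a2 and Col1a1 face Itga2, an alpha chain of a collagen receptor, at 92.5 ± 16.7 CPM in tumour NK, while Itga1, the other alpha chain of this kind, stood at 3.48 to 8.96 CPM. Icam1, the ligand of the leukocyte integrin LFA-1, went the other way. It was at 22.3, 23.9 and 18.1 CPM in sCAF and at 445.3, 627.2, 511 and 452.5 CPM in tumour NK (-4.57, SE 0.21), although its receptor chain Itgal was at 318.6 to 470.3 CPM in the NK libraries.

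Among ligands of activating receptors 2 of 6 tested members were higher in sCAF and 3 lower, against 34.6% and 35.9% of all tested genes. The NKG2D receptor Klrk1 was at 379.8, 454, 349.4 and 350.9 CPM in tumour NK libraries. Its ligands Raet1e and H60b were near the floor in sCAF, at 1.94, 0.824 and 1.65 CPM and at 6.78, 2.47 and 1.65 CPM. H60b was at 44.3 to 74.7 CPM in the NK libraries themselves (log2 fold change -3.88, SE 0.35). Raet1d, H60a, H60c and Ulbp1 were listed for neither population, so they had no value rather than a low one. The level of NKG2D ligands as a whole in sCAF is therefore not known here. Pvr (CD155), shared by the activating receptor Cd226 and the inhibitory receptors Tigit and Cd96, was the main exception, at 177.8, 169.7 and 217 CPM in sCAF and 26.7, 37.3, 30.7 and 28.6 CPM in tumour NK. Its groups did not overlap (log2 fold change 2.60, SE 0.18, adjusted p = 9.8e-12 in edgeR). Nectin2, a second ligand of Cd226 and Tigit, was listed for sCAF only at 72.2, 93.1 and 127.9 CPM. On the NK side Cd226 was at 27.9 ± 4.1 CPM, Tigit at 55.1 ± 10.8 CPM and Cd96 at 131.6 ± 19.7 CPM (n = 4). Tnfsf9 (4-1BB ligand) was also higher in sCAF, at 41.2, 62.6 and 54.5 CPM against 16.2 to 29.9 CPM (1.18, SE 0.24).

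On the list of ligands of inhibitory receptors, which leaves Pvr to the activating list and the collagens read by Lair1 to the collagen list, 0 of 13 tested members were called higher in sCAF and 9 lower, against 35.9% lower over all genes, with a median log2 fold change of -0.92. H2-T23 (Qa-1), which is read by NKG2A, was at 370.1, 299.1 and 181.5 CPM in sCAF and at 448.4 to 509.1 CPM in tumour NK (-0.79, SE 0.20). Clec2d, the ligand of Klrb1b, was at 49.9, 68.4 and 39.6 CPM against 450.2 to 665.9 CPM (-3.43, SE 0.21). Cd274 (PD-L1) was at 54.2, 28.8 and 21.4 CPM against 71.7 to 145.5 CPM (-1.51, SE 0.32), and its receptor Pdcd1 was at 11 to 29.6 CPM. The class I heavy chain H2-D1, read by Ly49 receptors, was not called, and without sCAF replicate 3 the number of members called higher was 1. Lgals3 (galectin-3), a ligand of Lag3, was not called either, at 1294 ± 306 CPM in sCAF and 1071 ± 133 CPM in tumour NK, but it was called higher without sCAF replicate 3 (0.40, adjusted p = 0.0413 in edgeR).

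Of 8 tested cytokines and death ligands 3 were higher and 4 lower, shares of 37.5% and 50% beside 34.6% and 35.9% over all genes. Tgfb1 was lower in sCAF, at 82.8, 84.9 and 92.4 CPM against 440.4, 516.7, 543.4 and 467.3 CPM (log2 fold change -2.53, SE 0.17), whereas Tgfb3 was higher, at 90.6, 129.4 and 168.3 CPM against 2.99 to 18 CPM (3.38, SE 0.31). Neither gene's groups overlapped. Ltbp3, which holds latent TGF-beta in the matrix, was at 1138, 968.9 and 1011 CPM against 20.9 to 30.5 CPM (5.28, SE 0.19). The receptor chains Tgfbr1 and Tgfbr2 were at 45.7 ± 5.8 CPM and 212.2 ± 25 CPM in tumour NK. Il15, the survival cytokine of NK cells, was at 16, 19.8 and 12.4 CPM in sCAF and 0 to 4.85 CPM in tumour NK (2.68, SE 0.50), facing Il2rb at 1440 ± 243.5 CPM. Mif, a ligand of Cd74, was at 1111 ± 128 CPM against 254.9 ± 27.7 CPM (2.10, SE 0.17). Il2, Il7, Il12a and Il12b were listed for neither population and had no value here.

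The receptor list for chemokines, sphingosine-1-phosphate and other lipid or nucleoside signals had 8 of 10 tested members lower in sCAF, beside 35.9% of all tested genes. Of these 10 tested members 5 averaged under 3 counts in the lower group. Ccr2 was at 778.2, 899, 1014 and 538.4 CPM in tumour NK and its ligand Ccl2 at 453 ± 254.7 CPM in sCAF. Cxcr6 was at 72.4 to 111.5 CPM in tumour NK and had 0 counts in all 3 sCAF libraries, while its ligand Cxcl16 was at 70.7, 68.4 and 94.1 CPM in sCAF (log2 fold change 4.21, SE 0.31). Cxcr3 was at 87.2 ± 11.5 CPM and Cx3cr1 at 25.9 ± 6 CPM in tumour NK, facing Cxcl10 and Cx3cl1. Cxcr4 at 333.9 ± 80.1 CPM faces Cxcl12, which was at 11.1, 31.3 and 50.3 CPM in sCAF. The only tested member of this list called higher in sCAF was S1pr2, and without sCAF replicate 1 there were 2.

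Lipid and nucleoside signals came largely from genes listed for sCAF only. Sphk1, the kinase that makes sphingosine-1-phosphate (S1P), was at 214.1, 146.7 and 154.3 CPM and Spns2, an S1P exporter, at 304.7, 457.3 and 410.9 CPM, facing S1pr5 at 43.1 ± 6.6 CPM in tumour NK. Ptgs2 and Ptges, of prostaglandin E2 synthesis, were at 112 ± 13 CPM and 167 ± 106 CPM, facing Ptger4 at 66.6 ± 13.7 CPM. Nt5e (CD73), which makes adenosine, was tested and higher, at 298.9, 269.4 and 212.9 CPM against 47.5 to 89.6 CPM (log2 fold change 2.01, SE 0.20), facing the receptor Adora2a at 129.3 ± 16.4 CPM. Entpd1 (CD39), which acts before Nt5e in making adenosine, had 0 counts in all 3 sCAF libraries and was at 4.85 to 8.69 CPM in tumour NK.

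**Figure D3:**
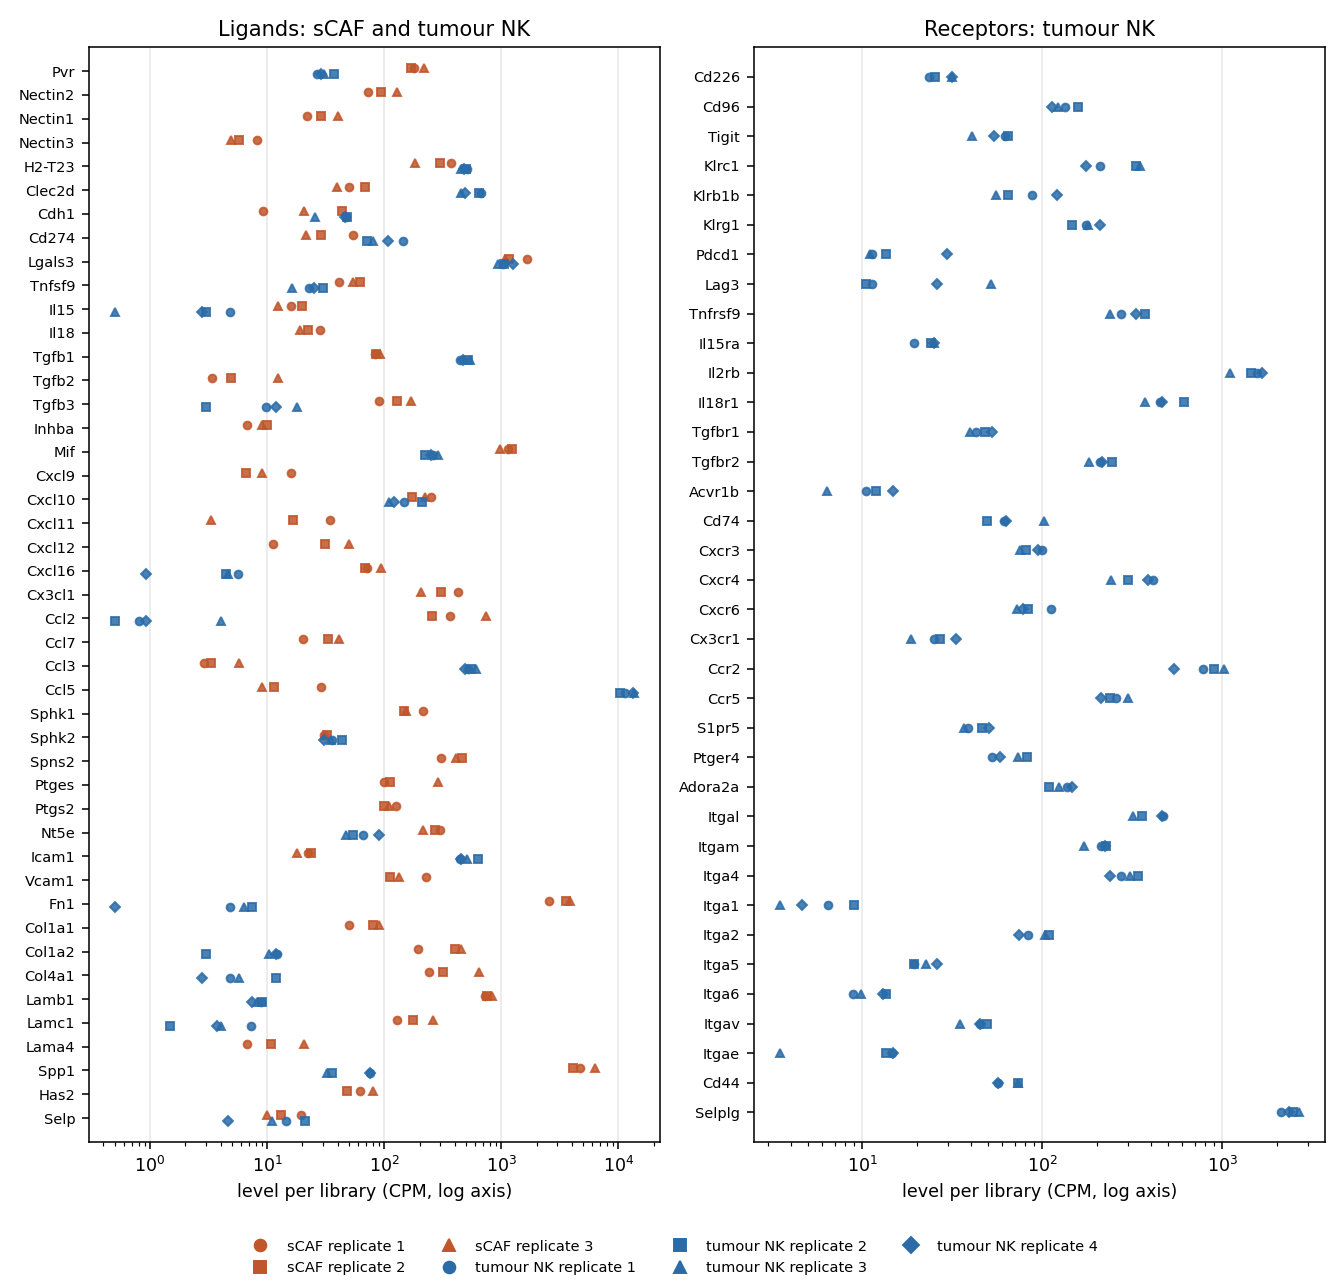
CPM per library (log axis) of the 45 ligands detected in sCAF (left, orange sCAF and blue tumour NK, no blue point where the NK table does not list the gene) and of the 36 receptors they pair with in tumour NK (right), with values under 0.5 drawn at 0.5. In sCAF Fn1, Spp1 and Pvr lie to the right of all their tumour NK values, whereas Icam1, Clec2d and Tgfb1 lie higher in tumour NK.

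Of 22 activating receptors and adaptors 18 were listed in the NK table only, and the 4 tested were all lower in sCAF. Of 25 inhibitory receptors 19 were listed for NK only and the 3 tested were lower, among them Lilr4b and Lilrb4a, near-identical genes whose reads may be split. Of 17 tested cytokine and TGF-beta receptors 8 were lower and 5 higher, shares of 47.1% and 29.4% beside 35.9% and 34.6% over all genes. Il18rap, a chain of the IL-18 receptor, was at 14 to 23.2 CPM in sCAF and 633.5 to 709.1 CPM in tumour NK (log2 fold change -5.09, SE 0.22), and Tgfbr1 was higher in sCAF, at 205.4, 184.6 and 263.2 CPM against 39.4 to 52.6 CPM (2.24, SE 0.18). Cytotoxic effectors were lower for 11 of 12 tested members. Ctsw, a cysteine protease of cytotoxic lymphocytes, was at 1.45, 0 and 4.13 CPM in sCAF and 2128 to 2263 CPM in tumour NK, and Srgn (serglycin), the granule proteoglycan, at 13.2 to 22.3 CPM against 2576 to 3000 CPM. The exception was Lamp1, a lysosomal membrane protein of all cells that is used to follow degranulation, at 872.3, 902.2 and 1232 CPM in sCAF and 145 to 153.8 CPM in tumour NK (log2 fold change 2.72, SE 0.17). Lymphoid factors were lower for 14 of 15, and only Gata3 was not called, at 141.2 ± 8.3 CPM against 147.5 ± 8.3 CPM (-0.08, SE 0.15).

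Of 12 tested integrin subunits 6 were higher and 5 lower in sCAF, beside 34.6% and 35.9% of all tested genes. Itgb4 and Itga3, chains of laminin receptors that are known from epithelia, were at 672.8, 622 and 404.3 CPM and at 1095, 847 and 833.4 CPM in sCAF, against at most 1.62 CPM and 21.4 CPM in tumour NK. Itgb2, Itgb7 and Itgam, chains of leukocyte integrins, were lower, with log2 fold changes of -3.18 (SE 0.28), -7.13 (SE 0.30) and -6.50 (SE 0.30). The epithelial marker list was also higher in sCAF than in tumour NK. Among sCAF libraries its sum was lowest in replicate 1, where Itgb4 and Itga3 were highest, and its member Krt8 was highest in replicate 1 as well. The source of these integrin transcripts was not tested.

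Hypoxia targets and glycolytic enzymes were higher for 17 of 24 tested members, lower for 4 and not called for 3, beside 34.6% higher over all tested genes, with a median log2 fold change of 1.52. Pkm (pyruvate kinase) was at 2628 ± 131 CPM against 774 ± 149 CPM, and Ndrg1, a stress-induced gene of hypoxia, at 844.5 ± 131.2 CPM against 27.1 ± 5.2 CPM (4.89, SE 0.20). Car9 (carbonic anhydrase 9), a classic hypoxia target, was listed for sCAF only at 310, 443.3 and 278.1 CPM. Hilpda, a lipid droplet protein induced by hypoxia, was lower, at 51.3, 81.6 and 135.3 CPM against 322.1 to 443.3 CPM (-2.18, SE 0.25). Slc2a1, the glucose transporter GLUT1, was higher (1.55, SE 0.18) and Slc2a3, GLUT3, was lower (-5.91, SE 0.54). Gapdh was at 292.1, 18.1 and 20.6 CPM in sCAF libraries. As a gene with many processed copies it has uncertain counts, and it was not called, although it was called higher without sCAF replicate 2 (3.64, adjusted p = 0.0468 in edgeR).

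Cell-cycle genes were higher for 11 of 20, lower for 3 and not called for 6, beside 34.6% higher over all tested genes. Ccnd1 (cyclin D1) was at 1726, 1203 and 929.9 CPM in sCAF and at most 3.48 CPM in tumour NK, and Cdk4, its kinase, at 950.3 ± 78.5 CPM against 136.3 ± 17.1 CPM (log2 fold change 2.77, SE 0.17). Ube2c and Top2a, which act in mitosis, were higher at 2.99 (SE 0.22) and 1.72 (SE 0.21). Mki67 was not called, at 25.7, 32.1 and 38.8 CPM against 16.6 to 45.8 CPM, and Pcna was lower (-0.93, SE 0.16).

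Immediate early and heat shock genes were higher for 17 of 29, lower for 6 and not called for 6, beside 34.6% higher over all tested genes. Ier3 was at 4432, 4962 and 4848 CPM in sCAF and at 30.7, 35.8, 41.1 and 38.8 CPM in tumour NK (log2 fold change 6.98, SE 0.20), and Atf3, a stress-induced factor, differed by 5.49 (SE 0.20). Fos and Jun, which form AP-1, differed by 3.44 (SE 0.18) and 3.88 (SE 0.19). Nr4a3 and Fosl2 went the other way, at -4.62 (SE 0.24) and -3.39 (SE 0.21). Nr4a1 and Junb were not called, at 1739 ± 495.2 and 3016 ± 927.5 CPM in sCAF and 2079 ± 358.9 and 2948 ± 529.6 CPM in tumour NK, although Nr4a1 was called lower without sCAF replicate 1 (log2 fold change -0.51). Both populations came from tumours digested at 37 °C, but sorting times are not given, and the part of tissue handling was not tested.

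Of 25 tested interferon-response genes 8 were higher and 12 lower in sCAF, shares of 32% and 48% beside 34.6% and 35.9% over all genes. Irf1 was at 1647, 1414 and 1315 CPM against 364.4 to 518.2 CPM (log2 fold change 1.68, SE 0.16) and Gbp2, a guanylate-binding protein, differed by 2.81 (SE 0.27). Mx1 and Ifit2, targets of type I interferon, were lower at -3.26 (SE 0.36) and -2.37 (SE 0.33), as was Irf7 at -1.98 (SE 0.19). The number called higher was 5 without sCAF replicate 1 and also 5 without sCAF replicate 2. Of 19 class I presentation genes 7 were higher and 6 lower, shares of 36.8% and 31.6%, near those over all genes. B2m, the light chain, was at 2011, 2430 and 4093 CPM against 8439 to 9112 CPM (-1.68, SE 0.20), while Psmb10, of the immunoproteasome, and Tapbp (tapasin) were higher at 1.06 (SE 0.20) and 0.86 (SE 0.17).

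**Figure D4:**
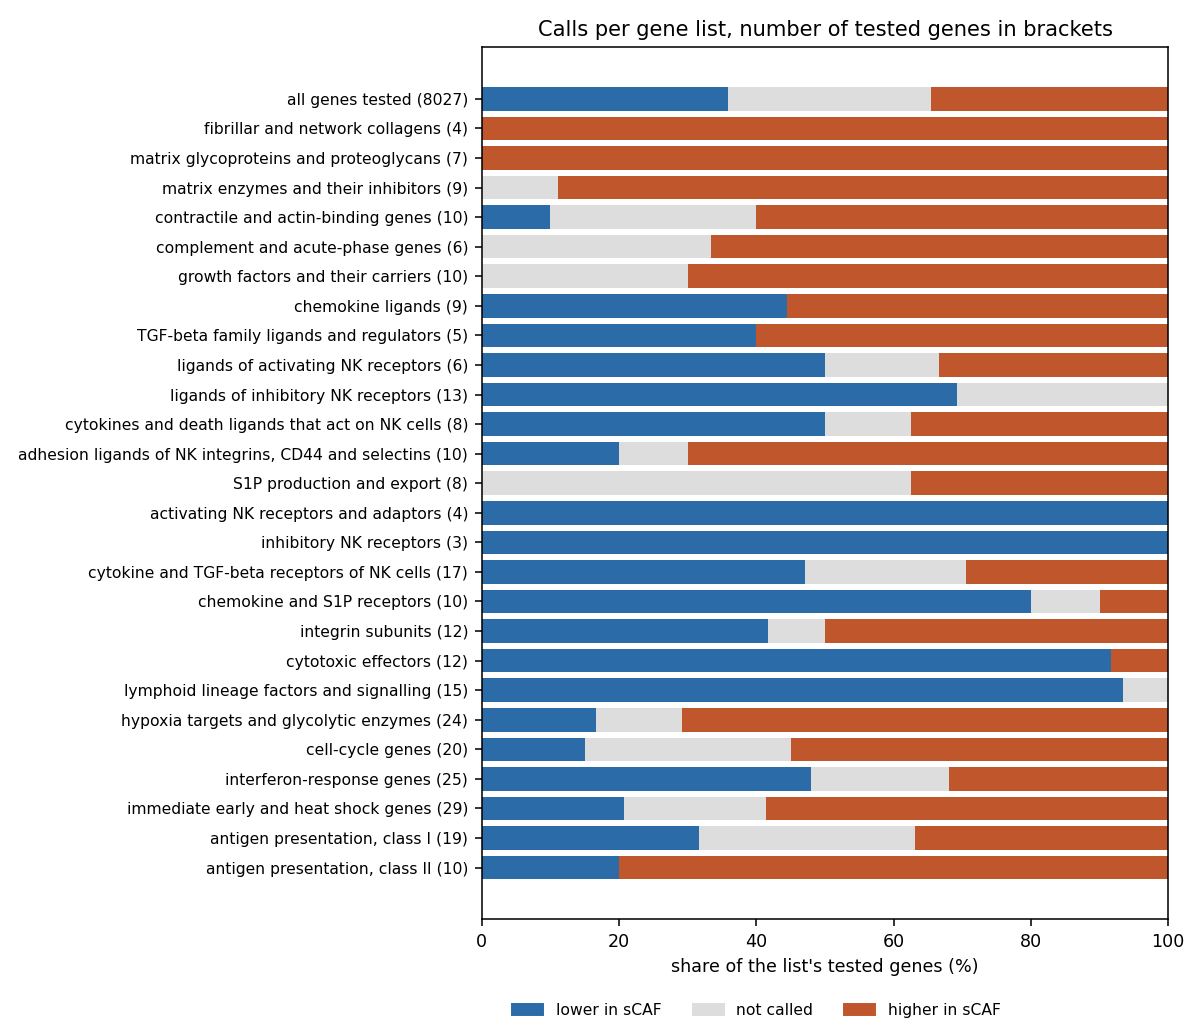
Share (%) of each list's tested genes called lower in sCAF (blue), not called (grey) and higher in sCAF (orange), with the number of tested genes in brackets and all 8027 tested genes in the top bar. Collagens and matrix glycoproteins are wholly on the sCAF side, the tested activating and inhibitory receptors wholly and 11 of 12 cytotoxic effectors on the NK side, while 5 of 17 cytokine and TGF-beta receptors are higher in sCAF.

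Class II presentation genes were higher in sCAF for 8 of 10 tested members, beside 34.6% of all tested genes, with a median log2 fold change of 3.67. Class II molecules present peptides to CD4 T cells, mostly on professional antigen-presenting cells, and interferon gamma can induce them in stromal and epithelial cells. H2-Aa was at 3493, 2294 and 835 CPM in sCAF and at 125.3, 89.6, 121.7 and 127.4 CPM in tumour NK (4.22, SE 0.51, adjusted p = 0.00027 in edgeR). H2-Eb1 was at 2748, 1695 and 406.8 CPM against 62.7 to 85.8 CPM (4.38, SE 0.70). The invariant chain Cd74 was at 1911, 1308 and 575.9 CPM against 49.3 to 101.4 CPM (4.14, SE 0.48). All 3 genes were highest in sCAF replicate 1 and lowest in replicate 3, and replicate 3 still exceeded every tumour NK library. The 2 members lower in sCAF were Ctss (cathepsin S) and H2-Oa, both typical of leukocytes. Most markers of dendritic cells and B cells were not listed for sCAF and have no value there. The macrophage list without Ly6c2 summed to 86.5 to 189 CPM in sCAF and to 30.5 to 147.7 CPM in tumour NK libraries. The part of antigen-presenting cells in the class II levels was not tested. Of the dendritic list only Zbtb46 was listed for sCAF, at 2.42, 6.59 and 4.95 CPM in replicates 1 to 3, and of the B cell list only Cd79b, at 0. The macrophage gene C1qa was at 17.9, 9.06 and 20.6 CPM in sCAF and at 0.923 to 22.6 CPM in tumour NK, and it was not called, but it was called higher without tumour NK replicate 3 (log2 fold change 2.56). BALB/c mice carry another MHC haplotype than the C57BL/6J reference, and its effect on the counts of class I and class II genes was not tested.

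The promoters of H2-Aa and H2-Eb1 are shown as those of the class II genes with the highest counts in these libraries that hold a Y box. They are from RefSeq on GRCm38.p6, 5′ to 3′ on the gene's strand from base 150 to base 31 before the start, upstream of the first exon, at chr17:34287854-34287973 (minus strand) and chr17:34305717-34305836 (plus strand). Capitals mark CTGATTGG, the Y box of class II promoters, an inverted CCAAT box known to bind NF-Y, which starts 51 bases before the H2-Aa start and 62 bases before the H2-Eb1 start.
H2-Aa: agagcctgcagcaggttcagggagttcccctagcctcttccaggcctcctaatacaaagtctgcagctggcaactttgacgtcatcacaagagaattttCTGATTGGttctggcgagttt
H2-Eb1: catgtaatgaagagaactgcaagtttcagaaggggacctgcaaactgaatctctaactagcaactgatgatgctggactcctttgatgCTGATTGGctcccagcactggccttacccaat
Counting both strands, 3.83% of the 32851 promoters held these letters in the 250 bases before the start, and 3 of the 9 class II list genes with an entry did, H2-Oa being the third. Ciita, the class II transactivator, was at 10.2, 8.24 and 1.65 CPM in sCAF replicates 1 to 3, the order of H2-Aa and H2-Eb1. Its value in replicate 3 lay under the floor of 2.48 CPM of that library. The part of Ciita in the class II levels was not tested.

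The sCAF libraries differed among themselves in a small set of genes, picked out here after their values were seen and given without a test. Among 2021 shared or sCAF-only genes with a mean of at least 100 CPM, the median ratio of the highest to the lowest library was 1.31, and 30 genes exceeded 3. Replicate 1 was the highest in 12 of these, replicate 2 in 2 and replicate 3 in 16. H19, an imprinted non-coding RNA, was at 493.1, 4285 and 2902 CPM. Pdgfrb, a receptor of pericytes and fibroblasts, was at 55.7, 43.7 and 238.5 CPM and the pericyte gene Rgs5 at 12.1, 24.7 and 181.5 CPM. Col3a1 was at 81.9, 271.9 and 289.6 CPM and Bgn (biglycan) at 105.6, 196.9 and 371.3 CPM, lowest in replicate 1 like Dcn and Col1a2, where the class II genes were highest.

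**Figure D5:**
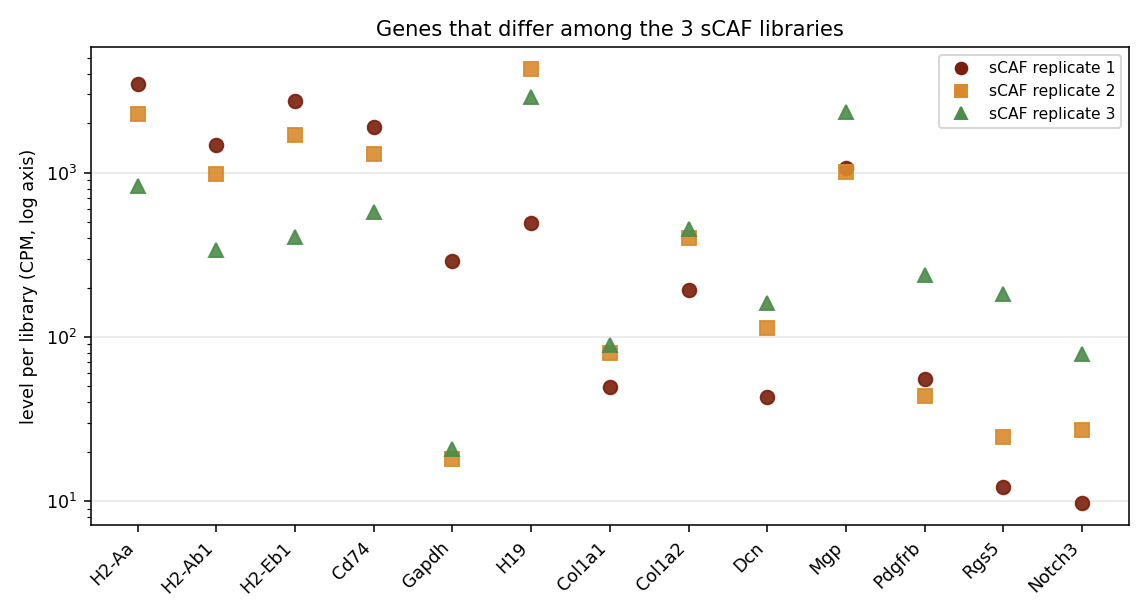
CPM (log axis) of 13 genes in each of the 3 sCAF libraries, chosen after their values were seen. Class II genes run from replicate 1 down to replicate 3, while Pdgfrb, Rgs5 and Notch3 are highest in replicate 3, and H19 is lowest in replicate 1 at 493.1 CPM.

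Of 3020 genes listed in the sCAF table only, 1222 were above 3 counts in all 3 libraries, and they have no tumour NK value here. Beside Krt18 and H19 the highest were Wfdc2, a secreted protease inhibitor of epithelia, at 1801, 2004 and 2256 CPM, Mgp (matrix Gla protein), a calcification inhibitor, at 1065, 1006 and 2357 CPM, and Lcn2. Bmp1, the protease that trims procollagen, was at 1182, 1023 and 1531 CPM, Clu (clusterin), a secreted chaperone, at 1242, 1254 and 1215 CPM and Ccn1, a matricellular protein, at 796.8, 734.9 and 1401 CPM. Of 995 genes listed in the NK table only, 424 were above 3 counts in all 4 tumour NK libraries. The granzyme gene Gzma was at 12540, 11790, 15200 and 12780 CPM there and Nkg7, of cytotoxic granules, at 2895, 2513, 3378 and 3047 CPM.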

How the data were processed

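The libraries were 3' end polyA libraries, and the values are raw counts per gene symbol, as deposited by the authors in 1 table for NK cells and 1 for sCAFs. The submitters' processing notes name bcl2fastq, STAR 2.4.2a, HTSeq and the mm10 build, without roles. The annotation, the strand setting and any use of molecular identifiers are not given in the sources used here. Every gene of the NK table reached at least 6 counts in some library, while 592 genes of the sCAF table were at 0 in all 3, so the tables were filtered differently. Tables were joined by symbol, and CPM was computed over the 9215 shared genes. Genes listed in 1 table only were given as CPM on the same totals and not tested.

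The 3 sCAF libraries were compared with 4 tumour NK libraries in edgeR 4.0.16 (R 4.3.3; filterByExpr, TMM factors, robust quasi-likelihood test), with Benjamini-Hochberg adjustment over all 8027 genes tested and a threshold of 0.05. On simulated counts only 200 genes were changed, by 1 or by 2 on the log2 scale. Of the genes changed by 1, 68.0% were recovered, and of those changed by 2, 98.0%. There were 12 false calls among 7654 unchanged genes, over 7849 genes in all. The rate of false calls where most genes differ, as with the 70.5% called here, was not tested. Named genes are the 8 with the largest change each way among called genes without overlap and with at least 3 counts on average in the lower group, the 8 most abundant of each group, and members of the lists and pairs. Symbols of predicted, pseudogene-like or ribosomal genes were left out of the first 2 sets. The members, lists, pairs and motifs were chosen with earlier results of these data known. The 26 function and 15 marker lists hold 695 genes, of which 317 were in both tables, 200 in the sCAF table only, 92 in the NK table only and 86 in neither, and 296 were tested. Erythroid markers were in neither table, and mast cell, T cell, adipocyte and Schwann cell markers summed to at most 58.6 CPM in any sCAF library. Alternatives were other scalings, filters, DESeq2 1.42.0, a 2-fold minimum, a replicate block, all 14 libraries in 1 fit and each library left out.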

Additional observations from a re-analysis of the deposited data

Results flagged for a closer look

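Of 150 named genes with values in tumour NK cells, 9 had 1 tumour NK library standing apart from the other 3 by Dixon's 95% criterion, and chance alone marks about 1 gene in 20. The 3 sCAF libraries are too few for that criterion. Mx1, a target of type I interferon, was at 47.8 CPM in tumour NK replicate 2 and at 27.7 to 28.4 CPM in the others, and in the same library S1pr2 was at 29.9 CPM against 18.6 to 19.7 CPM and H2-Aa at 89.6 CPM against 121.7 to 127.4 CPM. Pdcd1, which encodes PD-1, was at 29.6 CPM in replicate 4 against 11 to 13.4 CPM. Thy1 in replicate 4 was at 896.7 CPM against 739.2 to 754.9 CPM, and B2m there at 8439 CPM against 9010 to 9112 CPM. In replicate 1 Ctsw was at 2128 CPM against 2244 to 2263 CPM, Zbtb46 at 22.6 CPM against 12 to 13.4 CPM, and Ube2c, which acts in mitosis, at 12.1 CPM against 23.1 to 24.3 CPM.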

How the results depend on the processing

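Over 18 alternatives no gene called in the reported fit was called in the opposite direction. The 2779 genes called higher and 2882 called lower moved by over 1.5 times only when a difference of at least 2-fold was required, which left 1324 higher and 1477 lower. Leaving out each library in turn gave 2628 to 2779 higher and 2655 to 2893 lower. Of 131 tested genes named in the text, 112 kept their direction and side of the threshold throughout. Genes near no difference changed sign without a call: Cd44 stood at 0.0086 without TMM, 0.0119 with TMMwsp and 0.0166 with all 14 libraries, and from -0.227 to 0.1167 with a library left out. Junb stood at -0.0127 with upper-quartile scaling and from -0.2469 to 0.2219 with a library left out, and Mki67 from -0.1468 to 0.4377. The cause was not tested. Of 52 list counts 7 moved by over 1.5 times under some alternative other than the 2-fold minimum. Depth limits genes near the floor: 110 of the genes called higher and 214 of those called lower averaged under 3 counts in the lower group.

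The labels do not say whether libraries with the same replicate number share a tumour. Deviations from the group means of same-numbered libraries correlated with r of -0.0439, -0.00694 and -0.0724 across genes for numbers 1 to 3. These deviations come from few libraries of different cell types, so they cannot show whether the numbers pair the libraries. With the replicate number as a block 2572 genes were called higher and 2691 lower, Mki67 stood at -0.084, Cxcl10 was no longer called, Vegfc was called lower, and 3 rather than 5 cytokine and TGF-beta receptors were called higher.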
